A study of Homo sapiens with 9 samples.

Results

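The genes described here are 43 genes of the NRF2 antioxidant and glutathione system, chosen by their symbols out of the 32906 genes listed for each library, and all 43 were listed. The cells were labelled Huh7, the name of an established cell line of human hepatocellular carcinoma. The genes were followed 48 hours after transfection with a scrambled control siRNA (Scramble) or with either of a pair of siRNAs against KDM4C. KDM4C is a histone lysine demethylase, and the pair is named Si-KDM4C#1 and Si-KDM4C#2. Each of the 3 groups holds 3 libraries, and the labels name no treatment or genetic change other than the siRNA. The unit is FPKM, fragments per kilobase of exon scaled to the fragments of the library, so that levels of genes can be compared per length.

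NRF2, encoded by NFE2L2, is a transcription factor of the response to oxidants and electrophiles. In unstressed cells KEAP1 binds NRF2 and hands it to a CUL3 ubiquitin ligase for degradation, and modified KEAP1 lets NRF2 accumulate, enter the nucleus and bind antioxidant response elements together with small MAF proteins. Its targets make and recycle glutathione, reduce peroxides and quinones, supply NADPH, store iron and export conjugates, a set of functions for which liver is known, and NRF2 itself is controlled largely at the protein level, which RNA sequencing does not measure.

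Promoters of 4 members are shown. These are the members whose levels are given by library below and whose window holds certain letters. The letters are the core of the antioxidant response element, TGACNNNGC, on either strand. Each promoter is the 300-base window of RefSeq on GRCh38.p14, from 250 bases before the start of the gene to 50 after it. It is written 5′ to 3′ on the strand of the gene, and the capitals mark each match.
GCLM, chr1:93909381-93909680, minus strand: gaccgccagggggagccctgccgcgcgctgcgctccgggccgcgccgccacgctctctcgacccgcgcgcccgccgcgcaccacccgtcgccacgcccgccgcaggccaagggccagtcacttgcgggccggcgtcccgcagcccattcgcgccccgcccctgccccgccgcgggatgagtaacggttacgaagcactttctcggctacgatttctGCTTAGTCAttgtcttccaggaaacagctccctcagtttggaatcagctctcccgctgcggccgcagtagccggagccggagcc
GSTP1, chr11:67583562-67583861, plus strand: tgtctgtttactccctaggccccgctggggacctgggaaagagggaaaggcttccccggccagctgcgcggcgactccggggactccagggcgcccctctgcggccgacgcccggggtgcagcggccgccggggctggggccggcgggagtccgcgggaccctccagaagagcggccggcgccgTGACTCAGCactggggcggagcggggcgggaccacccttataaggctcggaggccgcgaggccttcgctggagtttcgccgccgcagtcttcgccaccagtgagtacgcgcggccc
TXNRD1, chr12:104215529-104215828, plus strand: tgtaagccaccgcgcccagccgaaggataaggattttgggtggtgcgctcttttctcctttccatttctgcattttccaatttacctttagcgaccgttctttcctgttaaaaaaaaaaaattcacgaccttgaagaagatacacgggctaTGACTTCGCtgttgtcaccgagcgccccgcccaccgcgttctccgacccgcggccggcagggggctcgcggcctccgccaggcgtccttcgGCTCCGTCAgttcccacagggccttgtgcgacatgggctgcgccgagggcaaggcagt
ME1, chr6:83431002-83431301, minus strand: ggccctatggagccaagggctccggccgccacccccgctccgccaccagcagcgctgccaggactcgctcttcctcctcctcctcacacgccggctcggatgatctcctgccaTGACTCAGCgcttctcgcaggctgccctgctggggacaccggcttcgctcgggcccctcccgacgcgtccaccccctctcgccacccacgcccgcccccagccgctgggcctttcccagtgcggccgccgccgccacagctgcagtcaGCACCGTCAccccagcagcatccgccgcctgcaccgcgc

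A promoter was given for 33 of the 43 genes, and 7 of these (21.2%) held a match, against 4687 of 35116 promoters of the same length over all genes (13.3%). Besides the 4 printed, they were GPX2, PGD and AIFM2, which are not among the members given by library. Counted from the start of the gene, the match lay at -34 in GCLM, at -66 in GSTP1, at -99 and -8 in TXNRD1, and at -137 and 11 in ME1. Of the 4 printed, GCLM, GSTP1 and ME1 rose with Si-KDM4C#1 and TXNRD1 did not pass the test. ME1 was the 1 of the 4 that rose with Si-KDM4C#2. GSTP1 and ME1 were given by library for a large log2 fold change past the test with either siRNA. That both moved was therefore fixed by this choice. It cannot show whether a match goes with a rise among the 4 printed. Of the other 3, PGD rose with Si-KDM4C#1 and fell with Si-KDM4C#2, AIFM2 passed the test with neither, and GPX2 was not tested. Among tested members with no match, SRXN1, KEAP1, FTL, GPX1 and PRDX5 rose with both siRNAs. AKR1C1, AKR1C2, AKR1C3, CAT, TXNIP, NFE2L2, GSTM3, GSTM4 and PRDX2 fell with both. The other tested members with no match passed the test with a single siRNA or in opposite directions. No promoter was given for HMOX1. Of all 38 members tested, 50% rose with Si-KDM4C#1 and 36.8% with Si-KDM4C#2. Whether a match goes with a rise was not tested. A match is a description of these letters in this window and not a measured site.

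The targeted gene was checked first. KDM4C stood at 4.69 ± 0.167 FPKM in Scramble (mean ± SD, n = 3, as throughout), at 1.14 ± 0.0395 with Si-KDM4C#1 and at 0.287 ± 0.0535 with Si-KDM4C#2, a log2 fold change of -1.41 and -2.15 (adjusted p = 2.65e-07 and 5.45e-08, limma-trend). Depth, recovered from the FPKM values and exon lengths, was 14597503 to 18058557 fragments per library. An exact permutation test of 3 against 3 libraries could not go below p = 0.1, so the fit across all genes was used. Every one of the 13 listed hepatocyte markers was under 1 FPKM in every library (summed level 0.0540 to 0.578 FPKM). These markers do not bear out the name of a liver cell line. Huh7 is therefore given only as the labels state it, and the identity of the cells was not tested further. The summed level of 6 epithelial markers was 347 to 367 FPKM in Scramble, 302 to 322 with Si-KDM4C#1 and 259 to 275 with Si-KDM4C#2, and that of 7 fibroblast markers was 49.5 to 52.9, 56.0 to 59.1 and 79.7 to 80.8 FPKM. Of these markers, 2 epithelial (KRT19 and CDH1) and 3 fibroblast (COL1A2, DCN and THY1) were under 1 FPKM in every library. KRT8 and KRT18 had the highest levels of the epithelial list. Within these lists members moved in opposite directions. COL3A1 rose with both siRNAs (27.5, 38.5 and 55.5 FPKM), PDGFRB fell with both (1.95, 0.308 and 1.03 FPKM), and LUM fell with Si-KDM4C#1 (6.97, 3.58 and 6.15 FPKM). KRT8 fell with both (199.5, 138 and 147 FPKM), and KRT18 rose with Si-KDM4C#1 and fell with Si-KDM4C#2 (141, 162 and 98.8 FPKM). The part of these markers in the results below was not tested. In bulk RNA, fewer cells of a kind and less RNA per cell cannot be told apart, and nothing says whether the 3 libraries of a group came from separate cultures, so the p-values measure the spread between these libraries.

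In the Scramble cells the 43 genes covered a wide range of levels. The ferritin chains FTL and FTH1, which store iron, led with 1424 ± 35.7 and 837 ± 88.8 FPKM, followed by the peroxiredoxin PRDX1 (320 ± 12.1 FPKM) and by thioredoxin, TXN (190 ± 8.76 FPKM). In all 12 genes were at 100 FPKM or more, 17 between 10 and 100, 8 between 1 and 10 and 6 under 1 FPKM. Among the 42 pairs of neighbours in this order, the Scramble libraries of 22 pairs overlapped, and such neighbours cannot be ranked by these libraries. GPX2, GPX3, GSTM2, AKR1B10 and SLC3A1 had a mean under 1 FPKM in every group and were not tested with the others.

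The test was limma-trend on log2(FPKM + 1), with all 9 libraries in 1 fit and Benjamini-Hochberg adjustment over 14363 genes. A gene rose or fell when its adjusted p was under 0.05, and it was called when the fold change on this scale was also over 2. With Si-KDM4C#1, 19 of the 38 members tested rose and 13 fell, where 31.7% of all genes tested rose and 33.9% fell. With Si-KDM4C#2, 14 rose and 15 fell, against 34.4% and 25% of all genes. Most genes tested moved with each siRNA (65.7% and 59.4% in either direction), and 84.2% and 76.3% of the members tested did. The members tested had a median level of 42.3 FPKM over all libraries, against 5.67 for all genes tested, and the part of their level in these shares was not tested. With quantile normalization the split was 15 higher and 17 lower with Si-KDM4C#1, against 10 and 18 with Si-KDM4C#2. The median log2 fold change of the members came to 0.09 for Si-KDM4C#1 and 0.01 for Si-KDM4C#2, and that of all genes tested was -0.03 and 0.06. Groups without overlap were common. All Si-KDM4C#1 libraries lay above all Scramble libraries in 33.5% of all genes tested and below them in 36.0% (18 and 14 of the 38 members). For Si-KDM4C#2 the shares were 37.3% and 27.9% (15 and 15 members). With Si-KDM4C#1 the tested genes of NADPH supply and iron storage all rose and both efflux pumps fell, while each of the other roles held members on both sides or members that did not pass. With Si-KDM4C#2 both ferritin genes rose, neither ferroptosis gene passed the test, and of the 3 tested glutathione transferases 2 fell and 1 did not pass. The map by library shows the other roles, each with members on both sides or members that did not pass.

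**Figure D1:**
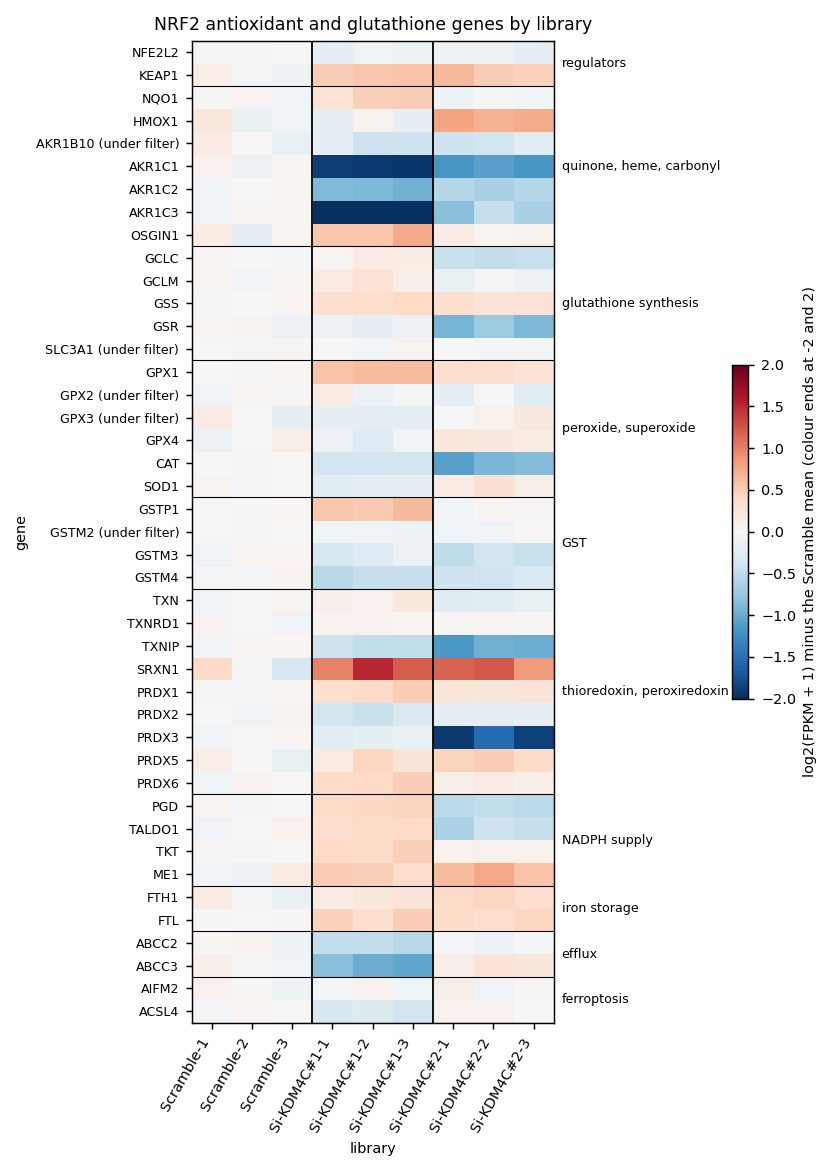
Each row is a member and each column a library. The colour gives log2(FPKM + 1) minus the mean of the 3 Scramble libraries, red for higher and blue for lower, with the colour ending at -2 and 2. The 3 AKR1C genes are blue in all 6 knockdown libraries, SRXN1 is red in all 6, and PRDX3 is dark blue in the 3 Si-KDM4C#2 libraries.

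Few members passed the fold change limit. With Si-KDM4C#1, SRXN1 was called higher and AKR1C1 and AKR1C3 lower, where 4.04% of all genes were called higher and 4.83% lower. With Si-KDM4C#2, SRXN1 was again called higher, and AKR1C1, PRDX3 and TXNIP were called lower, where 2.6% of all genes were called higher and 2.3% lower. Both comparisons use the same Scramble libraries, so that their values stand side by side below and are not independent of each other.

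**Figure D2:**
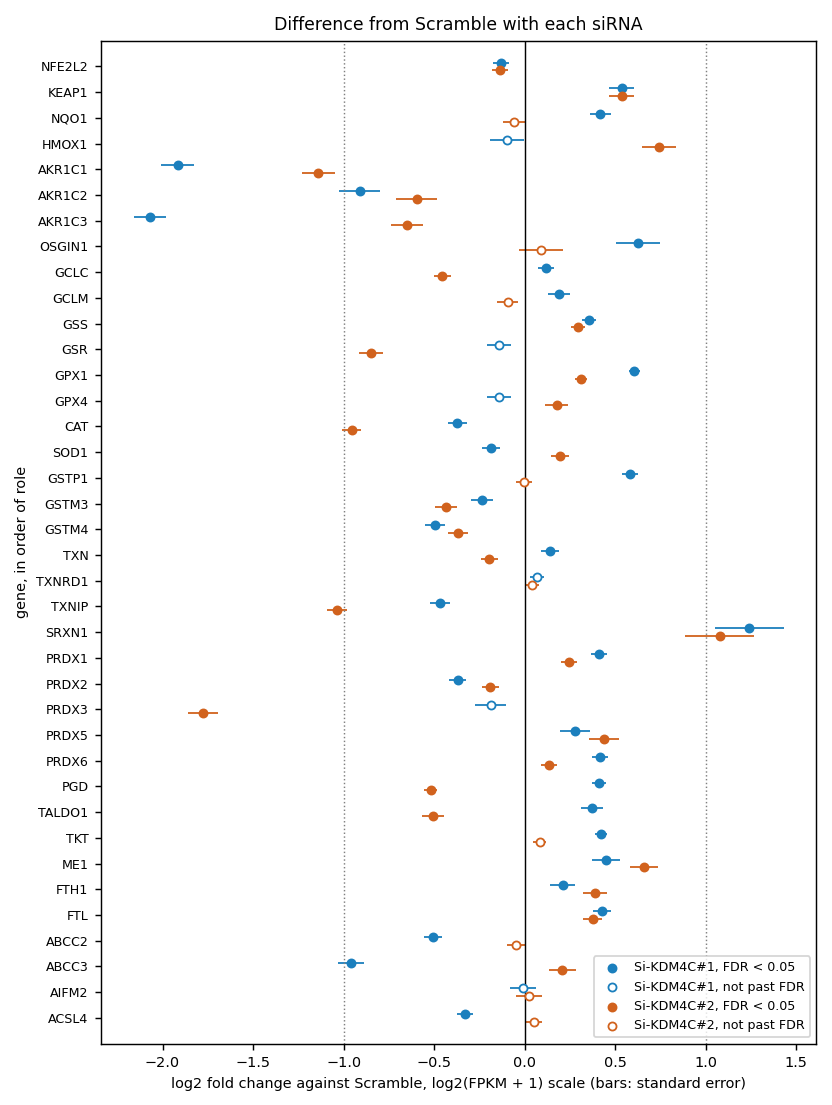
Log2 fold change against Scramble for each of the 38 members tested, on the log2(FPKM + 1) scale, in blue for Si-KDM4C#1 and orange for Si-KDM4C#2, with the standard error as bar. Filled points passed the test and open points did not, and the dotted lines mark a fold change of 2. SRXN1 lies right of the line with both siRNAs, AKR1C1 lies left of it with both, and PGD and TALDO1 lie on opposite sides of 0.

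Of the regulators, NFE2L2 was lower and KEAP1 higher with each siRNA. NFE2L2 (chromosome 2, 177227595 to 177392697, GRCh38, GENCODE 29) had 11.99, 12.4 and 12.4 FPKM in Scramble, 10.7, 11.4 and 11.2 with Si-KDM4C#1, then 11.4, 11.3 and 10.5 with Si-KDM4C#2. All knockdown libraries were below all Scramble libraries, and NFE2L2 fell by 0.13 and by 0.14 on the log2 scale (SE 0.044, limma-trend adjusted p = 0.0262 and 0.0235). KEAP1 (chromosome 19, 10486120 to 10503741), the inhibitor, had 14.9, 13.1 and 12.4 FPKM in Scramble, 19.2, 20.1 and 20.4 with Si-KDM4C#1, then 21.6, 19.2 and 18.9 with Si-KDM4C#2. The groups did not overlap, and KEAP1 rose by 0.54 and 0.53 (SE 0.071, limma-trend adjusted p = 0.000101 and 0.000139). Adjusted for GC content, KEAP1 came to 0.26 and 0.32 and still passed the test. The falls of NFE2L2 no longer passed the test with that adjustment (log2 fold change -0.10 and -0.07, adjusted p = 0.0764 and 0.221). In limma voom the fall with Si-KDM4C#1 did not pass either (adjusted p = 0.27). With Si-KDM4C#1 the fall was also lost without Scramble replicate 2 or 3 or Si-KDM4C#1 replicate 1 (adjusted p = 0.0728, 0.0667 and 0.0883), and with Si-KDM4C#2 without Scramble replicate 2 or 3 or Si-KDM4C#2 replicate 3 (0.0675, 0.0620 and 0.0929).

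The inducible targets most used as readouts did not share a pattern. NQO1, a quinone reductase, had 46.1, 47.0 and 42.5 FPKM in Scramble, 55.4, 63.3 and 63.7 with Si-KDM4C#1, then 42.1, 44.3 and 43.6 with Si-KDM4C#2. It rose with Si-KDM4C#1 by 0.42 (SE 0.060, limma-trend adjusted p = 0.000182; 0.25 with quantile normalization), while its Si-KDM4C#2 libraries overlapped Scramble (log2 fold change -0.06, adjusted p = 0.428). HMOX1, heme oxygenase, which cleaves heme, showed the reverse: 49.7, 39.2 and 40.6 FPKM in Scramble, 37.2, 45.3 and 38.4 with Si-KDM4C#1, then 74.6, 70.4 and 72.3 with Si-KDM4C#2. Its Si-KDM4C#2 libraries were above all others (log2 fold change 0.74, SE 0.094, limma-trend adjusted p = 0.000109), and those of Si-KDM4C#1 overlapped Scramble (log2 fold change -0.10, adjusted p = 0.396). The siRNAs differed directly for both genes, by -0.48 for NQO1 and by 0.84 for HMOX1 (Si-KDM4C#2 against Si-KDM4C#1, limma-trend adjusted p = 8.75e-05 and 4.01e-05). Adjusted for GC content, HMOX1 with Si-KDM4C#1 came to -0.33 and passed the test, which it did not in the reported fit.

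OSGIN1, an oxidative stress-induced growth inhibitor, was low, with 0.766, 0.3999 and 0.658 FPKM in Scramble, 1.36, 1.35 and 1.71 with Si-KDM4C#1, then 0.783, 0.650 and 0.678 with Si-KDM4C#2. It passed the filter on low values only through Si-KDM4C#1, where it was highest (log2 fold change 0.62, limma-trend adjusted p = 0.00139). In the fit over all 32906 genes the adjusted p was 0.0044, and adjusted for GC content the difference was 0.29 (adjusted p = 0.0622).

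**Figure D3:**
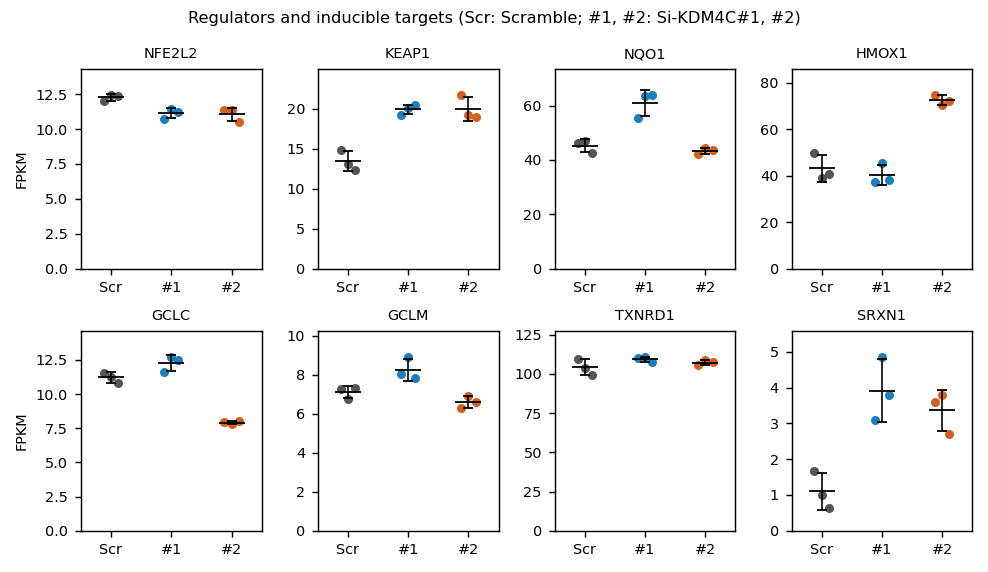
FPKM of the regulators NFE2L2 and KEAP1 and of 6 inducible targets in each library, with the mean and SD of the 3 libraries per group in black. KEAP1 and SRXN1 stand higher in both knockdown groups, NQO1 with Si-KDM4C#1, and HMOX1 with Si-KDM4C#2, where its 3 libraries sit between 70.4 and 74.6 FPKM.

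With Si-KDM4C#1 the aldo-keto reductases AKR1C3, AKR1C1 and AKR1C2 were among the members that fell most. These enzymes reduce aldehydes, ketones and steroids with NADPH, and the genes lie side by side on chromosome 10, AKR1C1 from 4963253 to 4983283, AKR1C2 from 4987400 to 5018031 and AKR1C3 from 5035354 to 5107686 (GRCh38, GENCODE 29). AKR1C3 had 14.7, 15.9 and 15.95 FPKM in Scramble, 2.68, 3.13 and 2.98 with Si-KDM4C#1, then 8.29, 11.0 and 9.47 with Si-KDM4C#2. Its mean level was 5.29-fold lower with Si-KDM4C#1 and 1.62-fold lower with Si-KDM4C#2 (log2 fold change -2.07 and -0.65, SE 0.088, limma-trend adjusted p = 6.73e-08 and 0.000171). AKR1C1 had 3.81, 3.16 and 3.62 FPKM in Scramble, 0.221, 0.203 and 0.170 with Si-KDM4C#1, then 1.01, 1.13 and 1.02 with Si-KDM4C#2. This was 17.8-fold lower and 3.35-fold lower in mean FPKM, and -1.92 and -1.14 on the log2(FPKM + 1) scale (SE 0.091, limma-trend adjusted p = 1.17e-07 and 5.05e-06). AKR1C2 had 1.14, 1.22 and 1.31 FPKM in Scramble, 0.206, 0.191 and 0.144 with Si-KDM4C#1, then 0.489, 0.418 and 0.499 with Si-KDM4C#2 (log2 fold change -0.91 and -0.60, limma-trend adjusted p = 6.32e-05 and 0.00133).

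In each of the 3 genes the groups were ordered in the same way, Scramble highest and Si-KDM4C#1 lowest, with no overlap between groups. The depth behind AKR1C1 was 504, 440 and 544 fragments in the Scramble libraries and 35, 26 and 24 with Si-KDM4C#1. The coding sequences of AKR1C1 and AKR1C2 are alike at 98.04% of 969 bases, and that of AKR1C3 is alike at 91.43% and 91.02%, so reads could be split between the copies and the levels of the single genes are uncertain. AKR1C2 passed the filter on low values only through Scramble, and its adjusted p over all 32906 genes was 4.26e-05 and 0.000679. AKR1B10, a related reductase, had 0.494, 0.325 and 0.201 FPKM in Scramble and at most 0.191 in any knockdown library, from 28 fragments in the 3 Scramble libraries together and 6 and 5 in the others.

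Of the genes of glutathione synthesis, GCLC fell with Si-KDM4C#2, GCLM rose with Si-KDM4C#1 and GSS rose with both. GCLC, the catalytic subunit of the rate-limiting ligase, had 11.6, 11.3 and 10.8 FPKM in Scramble, 11.6, 12.7 and 12.5 with Si-KDM4C#1, then 7.94, 7.80 and 7.99 with Si-KDM4C#2. It fell with Si-KDM4C#2 by 0.45 (SE 0.046, limma-trend adjusted p = 2.26e-05), and rose narrowly with Si-KDM4C#1 (log2 fold change 0.12, adjusted p = 0.0427). This rise was kept in 4 of 9 alternatives and lost for example with quantile normalization (adjusted p = 0.23). It was also lost without 7 of the 9 single libraries (Scramble replicate 2 or 3, Si-KDM4C#1 replicate 2 or 3, any of Si-KDM4C#2, adjusted p = 0.0553 to 0.138). GCLM, its modifier subunit, had 7.28, 6.73 and 7.30 FPKM in Scramble, 8.05, 8.89 and 7.81 with Si-KDM4C#1, then 6.31, 6.91 and 6.57 with Si-KDM4C#2. It rose with Si-KDM4C#1 by 0.19 (SE 0.059, limma-trend adjusted p = 0.0171), which was lost without Scramble replicate 2 or Si-KDM4C#1 replicate 2 (adjusted p = 0.0646 and 0.0661), and adjusted for GC content this difference was 0.42. With Si-KDM4C#2 the GCLM libraries overlapped Scramble (log2 fold change -0.09, adjusted p = 0.2; -0.15 and past the test with quantile normalization). The siRNAs differed directly in both subunits (-0.57 and -0.28, limma-trend adjusted p = 3.82e-06 and 0.00216).

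Glutathione synthetase, GSS, rose with both siRNAs, from 13.9 ± 0.358 to 18.1 ± 0.487 and 17.3 ± 0.370 FPKM (log2 fold change 0.36 and 0.29; 0.19 with each when adjusted for GC content, still past the test). Glutathione reductase, GSR, which returns oxidised glutathione to its reduced form, had 25.6, 26.2 and 22.8 FPKM in Scramble, 22.8, 21.7 and 22.8 with Si-KDM4C#1, then 12.6, 14.6 and 12.8 with Si-KDM4C#2. It fell with Si-KDM4C#2 by 0.85 (SE 0.067, limma-trend adjusted p = 4.5e-06) and with Si-KDM4C#1 overlapped Scramble (log2 fold change -0.14, adjusted p = 0.0889; -0.30 and past the test with quantile normalization). With Si-KDM4C#2, then, GCLC and GSR were lower and GSS higher. SLC3A1, a subunit of a cystine transporter, had at most 0.0571 FPKM in any library.

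Enzymes that remove peroxide and superoxide moved in several directions. Catalase, CAT, had 26.1, 25.7 and 26.3 FPKM in Scramble, 19.8, 19.8 and 20.05 with Si-KDM4C#1, then 11.8, 13.3 and 13.8 with Si-KDM4C#2. It fell with both, by 0.37 and by 0.95 (SE 0.052, limma-trend adjusted p = 0.000162 and 5.23e-07). GPX1, the cytosolic glutathione peroxidase, had 126, 125 and 130 FPKM in Scramble, 190, 197 and 196 with Si-KDM4C#1, then 161, 159 and 155 with Si-KDM4C#2. It rose with both, by 0.61 and 0.31 (SE 0.032, limma-trend adjusted p = 2.43e-07 and 2.8e-05), but its exons are 64.21% GC, GENCODE 29 types the gene as a polymorphic pseudogene, and adjusted for GC content the differences were 0.25 and 0.01 (adjusted p = 0.000293 and 0.871).

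Superoxide dismutase 1, SOD1, fell with Si-KDM4C#1 and rose with Si-KDM4C#2, from 72.9 ± 2.40 FPKM to 63.9 ± 1.56 and 83.7 ± 5.53 (log2 fold change -0.19 and 0.20, limma-trend adjusted p = 0.00795 and 0.00703), and the siRNAs differed by 0.38 (adjusted p = 0.000104). The rise was lost with quantile normalization and when adjusted for GC content (0.07 and 0.09), and the fall came to -0.37 and -0.35. GPX4, which reduces lipid peroxides and guards against ferroptosis, had 74.5 ± 6.07, 67.4 ± 4.73 and 84.2 ± 1.61 FPKM. With Si-KDM4C#1 it did not pass the test (log2 fold change -0.14, adjusted p = 0.0801), but it passed with quantile normalization (-0.33), adjusted for GC content (-0.46), and without Scramble replicate 1 or Si-KDM4C#1 replicate 3 (-0.20 and -0.19). It rose with Si-KDM4C#2 (log2 fold change 0.18, limma-trend adjusted p = 0.0402), a rise kept in 4 of 9 alternatives. The value came to -0.09 adjusted for GC content, and the rise was lost without Scramble replicate 1 or 2, Si-KDM4C#1 replicate 1 or any Si-KDM4C#2 library (adjusted p = 0.0526 to 0.13). GPX2 and GPX3 stayed at 0.443 FPKM or less in every library.

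Of the glutathione transferases, which conjugate glutathione to electrophiles, GSTP1 is the abundant one. It had 139, 134 and 143 FPKM in Scramble, 205, 200 and 219 with Si-KDM4C#1, then 133, 141 and 141 with Si-KDM4C#2. It rose with Si-KDM4C#1 by 0.58 (SE 0.044, limma-trend adjusted p = 2.11e-06) and not with Si-KDM4C#2 (0.00, adjusted p = 0.954), a direct difference of -0.58 (adjusted p = 2.57e-06). Its exons are 62.46% GC, and adjusted for GC content its log2 fold change came to 0.26 for Si-KDM4C#1 and -0.27 for Si-KDM4C#2, both past the test. With quantile normalization the Si-KDM4C#2 value was -0.14 and also past the test (adjusted p = 0.0107). GSTM3 and GSTM4 fell with both siRNAs, GSTM3 from 40.8 ± 1.82 FPKM to 34.5 ± 2.51 and 29.9 ± 1.54 and GSTM4 from 5.06 ± 0.237 to 3.30 ± 0.145 and 3.69 ± 0.177. GSTM2 stayed at or below 0.131 FPKM, and its coding sequence is alike to that of GSTM4 at 86.73% of 633 aligned bases, so the split between these 2 genes is uncertain. GSTM2 also shares 559 exon bases with GSTM1 and 375 with GSTM4 on the same strand. GSTM1, which is not a member, had a mean of 8.05 FPKM over all libraries, and its part in the counting was not tested.

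In the thioredoxin and peroxiredoxin system SRXN1, sulfiredoxin, which repairs overoxidised peroxiredoxins, rose most among the 9 members. It had 1.67, 1.00 and 0.627 FPKM in Scramble, 3.10, 4.85 and 3.78 with Si-KDM4C#1, then 3.59, 3.79 and 2.72 with Si-KDM4C#2. The groups did not overlap, and the mean was 3.56-fold and 3.06-fold higher (log2 fold change 1.24 and 1.08, SE 0.191, limma-trend adjusted p = 0.000294 and 0.000935). These levels rest on 68, 43 and 29 fragments in Scramble, and 84.95% of the SRXN1 exon bases (chromosome 20, 646615 to 653370) also belong to an annotated gene on the same strand, AL121758.1, so that reads may have been lost or split in counting. With Si-KDM4C#2 the log2 fold change was 0.91 without Scramble replicate 3 and 0.98 adjusted for GC content, under a fold change of 2, while the gene still passed the test.

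Thioredoxin reductase, TXNRD1, had the smallest fold changes of the inducible targets shown by library, with 109, 104 and 99.6 FPKM in Scramble, 110, 111 and 108 with Si-KDM4C#1, then 105, 109 and 108 with Si-KDM4C#2. The groups overlapped, and its log2 fold changes of 0.07 and 0.04 (SE 0.038, limma-trend adjusted p = 0.136 and 0.381) changed sign with quantile normalization (-0.11 and -0.05) and passed the test when adjusted for GC content (0.12 with each). TXN itself rose with Si-KDM4C#1, from 190 ± 8.76 to 209 ± 10.1 FPKM, and fell with Si-KDM4C#2, to 166 ± 6.66 FPKM (log2 fold change 0.14 and -0.19, adjusted p = 0.0329 and 0.00725). The rise was lost with quantile normalization (0.03) and without Scramble replicate 1 or 2 or Si-KDM4C#1 replicate 3 (adjusted p = 0.106, 0.0632 and 0.117), and the fall when adjusted for GC content (-0.08). TXNIP, which binds and inhibits thioredoxin, had 133, 145 and 146 FPKM in Scramble, 105, 99.7 and 101 with Si-KDM4C#1, then 63.4, 72.1 and 70.2 with Si-KDM4C#2. It fell with both, by 0.47 and by 1.04 (SE 0.055, limma-trend adjusted p = 4.8e-05 and 4.48e-07). With Si-KDM4C#2 it was -0.94 adjusted for GC content and -0.98 without Si-KDM4C#2 replicate 1, under a fold change of 2, while it still passed the test.

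The peroxiredoxins differed among themselves. PRDX3, the mitochondrial member, had 66.5, 69.6 and 70.8 FPKM in Scramble, 59.0, 60.1 and 62.0 with Si-KDM4C#1, then 17.5, 23.0 and 18.1 with Si-KDM4C#2. Its Si-KDM4C#2 mean was 3.53-fold lower (log2 fold change -1.78, SE 0.084, limma-trend adjusted p = 2.2e-07). With Si-KDM4C#1 it was -0.19 and did not pass the test (adjusted p = 0.0747), though its 3 libraries lay below all Scramble libraries and it did pass with quantile normalization (-0.38). PRDX1, PRDX5 and PRDX6 rose with both siRNAs, PRDX1 from 320 ± 12.1 FPKM to 425 ± 22.2 and 379 ± 4.08, PRDX6 from 121 ± 6.23 to 162 ± 6.96 and 133 ± 2.25, and PRDX5 from 155 ± 15.9 to 189 ± 17.7 and 210 ± 8.40. PRDX2 fell with both, from 180 ± 9.18 to 139 ± 7.65 and 158 ± 1.77 FPKM. The rise of PRDX5 with Si-KDM4C#1 came to -0.02 adjusted for GC content, and was lost with quantile normalization (0.12) and without Si-KDM4C#1 replicate 2 (adjusted p = 0.0517). Its rise with Si-KDM4C#2 (0.44) came to 0.19 adjusted for GC content (adjusted p = 0.0632, and 0.0319 with the replicate block). The rise of PRDX6 with Si-KDM4C#1 (0.42) came to 0.18 with quantile normalization, and the falls of PRDX2 (-0.37 and -0.19) came to -0.58 and -0.33 adjusted for GC content. The rise of PRDX6 with Si-KDM4C#2 came to -0.03 with quantile normalization and was lost without Scramble replicate 1 or 3 or Si-KDM4C#2 replicate 2 or 3 (adjusted p = 0.0542 to 0.0881).

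**Figure D4:**
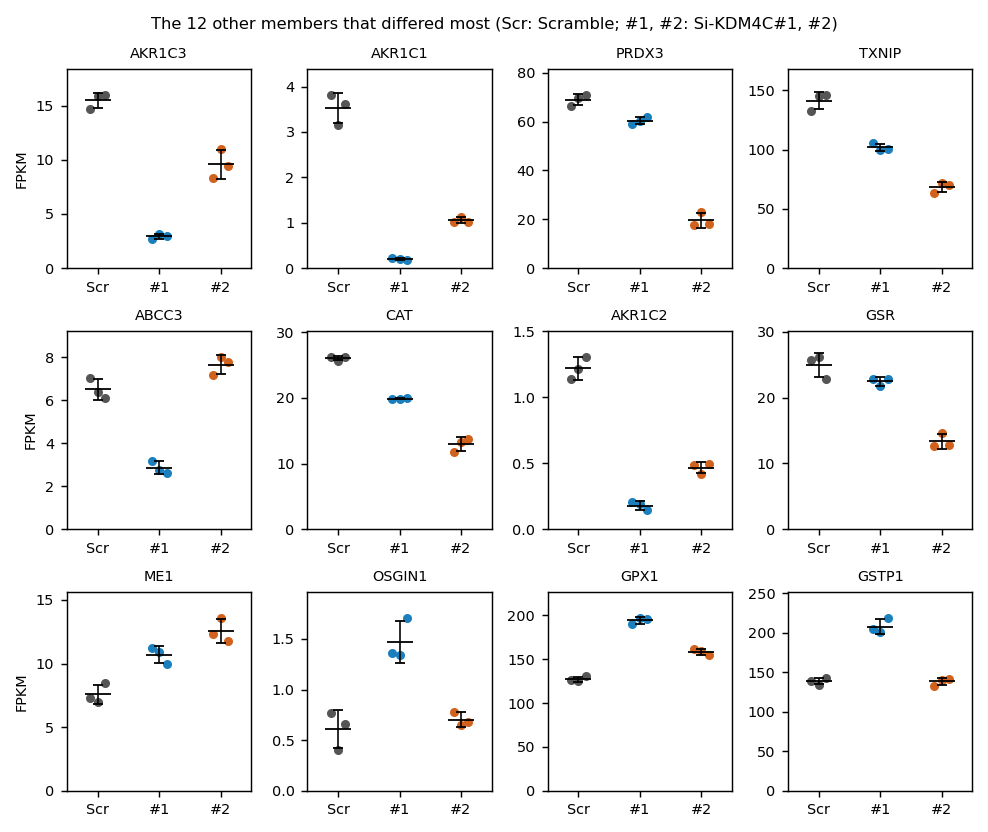
FPKM of the 12 other members with the largest log2 fold change against Scramble in each library, with the mean and SD of the 3 libraries per group in black. AKR1C1, AKR1C2 and AKR1C3 are lowest with Si-KDM4C#1, PRDX3, TXNIP, CAT and GSR are lowest with Si-KDM4C#2, and ABCC3 is low with Si-KDM4C#1 alone.

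The genes of NADPH supply rose together with Si-KDM4C#1, whereas under Si-KDM4C#2 they parted. All 4 rose with Si-KDM4C#1, by 0.37 to 0.45 on the log2 scale. With quantile normalization PGD came to 0.22, TKT to 0.21 and TALDO1 to 0.19, all past the test, and adjusted for GC content PGD came to 0.26 and TKT to 0.22. PGD, an oxidative enzyme of the pentose phosphate pathway that makes NADPH, went from 62.9 ± 1.91 FPKM to 84.0 ± 2.59 with Si-KDM4C#1 and to 43.6 ± 0.915 with Si-KDM4C#2 (log2 fold change 0.41 and -0.52, limma-trend adjusted p = 7.5e-06 and 2.62e-06). TALDO1, transaldolase of the same pathway, went from 54.3 ± 2.97 to 70.6 ± 1.83 and 38.0 ± 3.03 FPKM (log2 fold change 0.37 and -0.51), and adjusted for GC content the rise was 0.17 and did not pass the test (adjusted p = 0.0546). For both genes no library of any group reached into another group. TKT, transketolase, rose with Si-KDM4C#1 from 110 ± 1.94 to 147 ± 5.27 FPKM, and with Si-KDM4C#2 its 116 ± 0.629 FPKM did not pass the test (log2 fold change 0.08, adjusted p = 0.0614).

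ME1, malic enzyme, a source of NADPH outside the pentose phosphate pathway, had 7.27, 6.996 and 8.45 FPKM in Scramble, 11.2, 10.9 and 9.93 with Si-KDM4C#1, then 12.3, 13.6 and 11.7 with Si-KDM4C#2. It was the member of the 4 that rose with both siRNAs (log2 fold change 0.45 and 0.66, SE 0.077, limma-trend adjusted p = 0.000608 and 6.24e-05).

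Both ferritin chains rose with both siRNAs. FTL went from 1424 ± 35.7 FPKM to 1918 ± 117 and 1847 ± 66.8 (log2 fold change 0.43 and 0.37, limma-trend adjusted p = 5.01e-05 and 0.00017), which came to 0.23 and 0.24 adjusted for GC content and still passed the test. FTH1 went from 837 ± 88.8 to 965 ± 33.9 and 1092 ± 37.0 FPKM (log2 fold change 0.21 and 0.39, adjusted p = 0.0221 and 0.000922). With Si-KDM4C#1 the FTH1 libraries overlapped Scramble, and that rise was lost with quantile normalization (0.02), when adjusted for GC content (0.14), and without Scramble replicate 2 or 3 or Si-KDM4C#1 replicate 2 or 3 (adjusted p = 0.0504 to 0.0764). GENCODE 29 names 25 pseudogenes of FTH1 and 16 of FTL, so some of these reads could belong elsewhere. BEST1 overlaps 62.41% of the FTH1 exon bases on the opposite strand, but its own mean was 0.168 FPKM over all libraries. The part of this overlap in the counting was not tested.

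The efflux pumps, which export glutathione and glucuronide conjugates, fell with Si-KDM4C#1. ABCC3 (chromosome 17, 50634777 to 50692252) had 7.04, 6.37 and 6.11 FPKM in Scramble, 3.20, 2.76 and 2.63 with Si-KDM4C#1, then 7.17, 8.03 and 7.78 with Si-KDM4C#2. It fell with Si-KDM4C#1 by 0.96 (SE 0.074, limma-trend adjusted p = 2.44e-06) and rose narrowly with Si-KDM4C#2 (log2 fold change 0.21, adjusted p = 0.0348). The rise was lost with quantile normalization (0.16), when adjusted for GC content (0.08), and without Scramble replicate 2 or 3 or Si-KDM4C#2 replicate 2 or 3 (adjusted p = 0.0893 to 0.112). ABCC2 fell from 28.4 ± 1.74 to 19.7 ± 0.533 FPKM with Si-KDM4C#1 (log2 fold change -0.51, adjusted p = 1.15e-05), and with Si-KDM4C#2 its 27.3 ± 0.767 FPKM overlapped Scramble (-0.05, adjusted p = 0.407; -0.18 and past the test with quantile normalization).

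Of the pair of ferroptosis genes, ACSL4 moved with Si-KDM4C#1. AIFM2, which reduces ubiquinone at membranes and suppresses ferroptosis, had 7.42 ± 0.540, 7.36 ± 0.543 and 7.56 ± 0.592 FPKM, and its log2 fold changes of -0.01 and 0.02 changed sign with quantile normalization (0.02 and -0.04), while adjusted for GC content it passed the test with Si-KDM4C#1 (-0.21). ACSL4, which loads polyunsaturated fatty acids into phospholipids, fell with Si-KDM4C#1 from 12.8 ± 0.355 to 9.99 ± 0.372 FPKM (log2 fold change -0.33, limma-trend adjusted p = 0.000135; -0.10 and not past the test when adjusted for GC content) and had 13.3 ± 0.502 FPKM with Si-KDM4C#2 (0.05, adjusted p = 0.34).

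The siRNAs were then compared with each other, since a gene past the test with one and not with the other is not thereby shown to differ. With Si-KDM4C#2 against Si-KDM4C#1, 12 of the 38 members were higher and 17 lower, where 35.9% of all genes tested were higher and 26.5% lower (62.4% in either direction). AKR1C3 and ABCC3 were called higher (log2 difference 1.42 and 1.17, limma-trend adjusted p = 8.13e-07 and 8.87e-07), where 4.41% of all genes were, and PRDX3 was called lower (-1.59, adjusted p = 3.07e-07), where 2.49% were. PGD and TALDO1 followed at -0.93 and -0.88, and HMOX1 at 0.84. Of the 4 tested genes of glutathione synthesis and recycling, GCLC, GCLM and GSR were lower. NFE2L2, KEAP1, GSS, GSTM4, TXNRD1, SRXN1, PRDX5, FTL and AIFM2 did not pass the test, with log2 differences from -0.16 (SRXN1) to 0.16 (PRDX5). The standard error of the SRXN1 difference was 0.191, against 0.038 for GSS and TXNRD1.

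Against Scramble, a part of the members passed the test in the same direction in every alternative setting and every fit without a library that gave a value for them. With Si-KDM4C#1 12 of the 19 genes that rose did so (KEAP1, NQO1, GSS, GPX1, GSTP1, SRXN1, PRDX1, PRDX6, PGD, TKT, ME1 and FTL), and 11 of the 13 that fell (all but NFE2L2 and ACSL4). With Si-KDM4C#2 8 of the 14 genes that rose did so (KEAP1, HMOX1, GSS, SRXN1, PRDX1, ME1, FTH1 and FTL), and 13 of the 15 that fell (all but NFE2L2 and TXN). AKR1C1 had the widest range over settings, with -3.60 at a pseudocount of 0.1 and -4.06 in limma voom with Si-KDM4C#1.

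**Figure D5:**
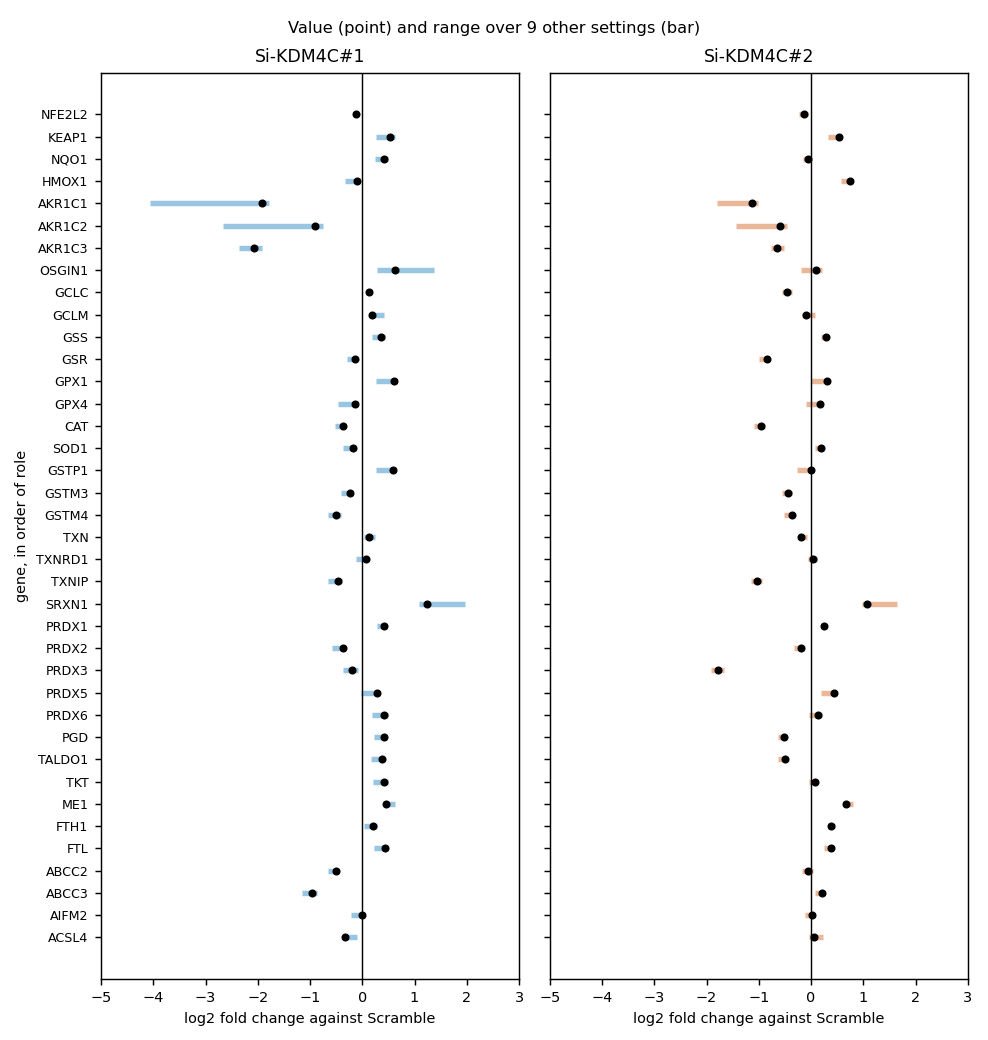
For each member tested, the point is the reported log2 fold change against Scramble and the bar runs from the lowest to the highest value over up to 9 other settings, with Si-KDM4C#1 on the left and Si-KDM4C#2 on the right. AKR1C1 runs from -4.06 to -1.80 with Si-KDM4C#1, and the bars of TXNRD1 and AIFM2 cross 0 in both panels.

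Beyond the 43 genes, 106 further genes of the pathway were followed in 5 lists, of which 101 were listed and 95 passed the filter on low values. Si-KDM4C#1 gave 47 that rose (49.5%) and 38 that fell (40%), where 31.7% and 33.9% of all genes tested did. Si-KDM4C#2 gave 34 (35.8%) and 32 (33.7%), where 34.4% and 25% did. The shares of the single lists below stand against the same shares of all genes. Among regulators and partners of NRF2 (14 tested) 8 rose (57.1%) and 6 fell (42.9%) with the first siRNA, and 5 rose (35.7%) and 4 fell (28.6%) with the other. MAFF, a small MAF protein, was called there, going from 2.40 ± 0.225 to 6.33 ± 0.399 FPKM with Si-KDM4C#1 (log2 fold change 1.11) and standing at 2.53 ± 0.209 with Si-KDM4C#2 (0.05).

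Of 24 further NRF2 targets, 9 rose (37.5%) and 12 fell (50%) with Si-KDM4C#1, against 9 (37.5%) and 8 (33.3%) with Si-KDM4C#2. SLC7A11, the cystine importer that feeds glutathione synthesis, was called higher with both siRNAs, from 3.59 ± 0.277 to 12.6 ± 0.776 and 10.4 ± 0.432 FPKM (log2 fold change 1.56 and 1.31, limma-trend adjusted p = 4.3e-08 and 2.2e-07). PANX2, a pannexin channel, was also called higher with both (1.299 and 1.27), and ABCC4, an efflux pump, was called lower with Si-KDM4C#2 (-1.08, and -0.35 with Si-KDM4C#1).

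Of 23 further glutathione enzymes, 8 rose (34.8%) and 12 fell (52.2%) with Si-KDM4C#1, against 7 (30.4%) and 6 (26.1%) with Si-KDM4C#2, the latter near the shares of all genes. CHAC1, which degrades glutathione, went from 3.62 ± 0.859 to 17.1 ± 1.73 and 5.73 ± 0.209 FPKM (log2 fold change 1.98 and 0.56). GGT1, which cleaves extracellular glutathione, and MGST2, a microsomal transferase, were called lower with Si-KDM4C#1 (-1.21 and -1.08) and stood at -0.80 and -0.48 with Si-KDM4C#2.

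Of 18 further thioredoxin, glutaredoxin and superoxide genes, 14 rose (77.8%) and 3 fell (16.7%) with Si-KDM4C#1, against 11 (61.1%) and 4 (22.2%) with Si-KDM4C#2. PRDX4, the peroxiredoxin of the endoplasmic reticulum, was called higher with both, from 38.4 ± 4.15 to 115 ± 3.11 and 137 ± 7.25 FPKM (log2 fold change 1.56 and 1.81). Of 16 further ferroptosis and iron genes, 8 rose (50%) and 5 fell (31.2%) with Si-KDM4C#1, against 2 (12.5%) and 10 (62.5%) with Si-KDM4C#2. IREB2, an iron regulatory protein, and SLC11A2, an iron importer, were called lower with Si-KDM4C#1 (-1.60 and -1.16) and stood at -0.44 and -0.47 with Si-KDM4C#2. These lists were chosen with results of these libraries known, and no list was tested as a set. The further genes were not followed over the alternative settings or the fits without a library. The part of their level in these shares was not tested.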

How the data were processed

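Total RNA of 9 libraries of cells labelled Huh7 was sequenced paired-end, and FPKM values were deposited by the authors as a separate list for each library. The processing notes of the authors name FastQC 0.11.5, HISAT2 2.1.0, StringTie 1.3.3b, featureCounts and DESeq 1.28.0 beside GRCh38, with no role or order. The strand setting of the counting is not given in the sources used here. The 43 genes, the further gene lists, the tests and the alternatives were chosen with earlier results of these data known. Groups and replicate numbers come from the sample titles.

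The fit took the 14363 genes (38 of the members) whose mean reached 1 FPKM in any group, on log2(FPKM + 1), by limma-trend in limma 3.58.1 (R 4.3.3), with all 9 libraries, no covariates and Benjamini-Hochberg adjustment. Folds on this scale understate changes of low genes. Members under the filter were taken from the fit over all 32906 genes. Of the 20 members given by library, 8 were fixed as regulators and inducible targets, and 12 were those with the largest log2 fold change past FDR < 0.05 with either siRNA. Further pathway genes were named where called with either siRNA. Fragments were recovered from FPKM and GENCODE 29 exon lengths (whole within 0.05 in all libraries for 97.66% of 32847 genes), and 3 fragments were taken as the floor (0.166 to 0.206 FPKM for 1 kb of exon). The alternatives tried were 1 FPKM or more in each of the 9 libraries (11171 genes), no filter, a pseudocount of 0.1, quantile normalization, a fit of only the 6 libraries compared, the replicate block, limma voom on fragments (at least 10 in 3 libraries, 16010 genes), a lowess adjustment of 14343 genes for GC content (span 0.3) alone or with the block, and the omission of each library. The fits were also run on simulated data in which 200 genes per siRNA changed 4-fold. Of these limma-trend called 184 for Si-KDM4C#1 and 181 for Si-KDM4C#2, with 3 and 2 false calls. Smaller changes and changes in low genes were not simulated. Replicates differed by more than counting noise (chi-square over its degrees of freedom 2.67 to 6.31). Promoters came from RefSeq (GRCh38.p14).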

Additional observations from a re-analysis of the deposited data

Results flagged for a closer look

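3 of the 38 members tested (7.89%) differed directly between Si-KDM4C#2 and Si-KDM4C#1 past FDR < 0.05 and a fold change of 2 in limma-trend. Of all genes tested 6.91% did. AKR1C3 was higher with Si-KDM4C#2 by 1.42 on the log2(FPKM + 1) scale, with 9.58 ± 1.35 against 2.93 ± 0.231 FPKM (SD, n = 3), and kept its direction and its place past the test in all 9 alternatives (1.296 to 1.67). ABCC3 was higher by 1.17, with 7.66 ± 0.442 against 2.86 ± 0.301 FPKM (1.03 to 1.39 over the alternatives). PRDX3 was lower by 1.59, a log2 difference of -1.59, with 19.5 ± 2.98 against 60.4 ± 1.54 FPKM (-1.77 to -1.53). In each of the 3 genes the libraries of the siRNAs did not overlap. These genes were picked by fold change and adjusted p in the same libraries, so this separation is no further evidence. Among all genes tested, picked or not, 40.0% were separated in this way on the higher side and 29.3% on the lower side. KDM4C itself also differed between the siRNAs, with a log2 difference of -0.73, and the part of the depth of knockdown in these differences was not tested.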

How the results depend on the processing

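Every count of members past FDR < 0.05 stayed within 1.5 times its reported value in all alternatives that were run. Counts past the fold change limit were small and moved. With Si-KDM4C#1 the 1 gene called higher became 2 with a pseudocount of 0.1 and in limma voom, and 0 with at least 1 FPKM in every library, where SRXN1 is not tested, and the 2 called lower became 4, 5 and 1. The 2 called lower also became 3 in the adjustment for GC content without and with the replicate block, and without Si-KDM4C#1 replicate 1. With Si-KDM4C#2 the 1 called higher became 0 with at least 1 FPKM in every library and in the adjustment for GC content without and with the replicate block, and 0 to 1 on leaving out a library, and the 3 called lower became 5 with a pseudocount of 0.1, 4 with quantile normalization and in limma voom, and 2 with at least 1 FPKM in every library, in the adjustment for GC content without and with the block, and without Si-KDM4C#2 replicate 1. Between the siRNAs the 2 called higher became 4 with that pseudocount and 5 in limma voom, and the 1 called lower became 4 in limma voom. The cause was not tested beyond the smaller set of genes in the stricter filter.

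No value that changed sign passed the test under the setting that changed it. Adjusted for GC content, without and with the replicate block alike, the log2 fold changes with Si-KDM4C#2 were 0.0053 for NQO1, -0.20 for OSGIN1, 0.082 for GCLM, -0.091 for GPX4, -0.047 for TKT, 0.030 for ABCC2 and -0.11 for AIFM2, that of PRDX5 with Si-KDM4C#1 was -0.023, and between the siRNAs NFE2L2 came to 0.031, KEAP1 to 0.061, GSS to 0.0021 and FTL to 0.016. With quantile normalization TXNRD1 came to -0.11, -0.053 and 0.060 in the 3 comparisons, AIFM2 to 0.018, -0.042 and -0.060, PRDX6, TKT and ACSL4 with Si-KDM4C#2 to -0.032, -0.032 and -0.037, and between the siRNAs KEAP1 to 0.032 and GSTM4 to -0.0048. In limma voom AIFM2 came to 0.052, -0.035 and -0.087, and with Si-KDM4C#2 TXNRD1 to -0.021 and ACSL4 to -0.0073. Over the fits without a library, values changed sign for HMOX1 with Si-KDM4C#1 (-0.18 to 0.0079), OSGIN1 (-0.0070 to 0.16) and GSTP1 (-0.026 to 0.025) with Si-KDM4C#2, AIFM2 with each siRNA (-0.061 to 0.031 and -0.028 to 0.072), and between the siRNAs for NFE2L2 (-0.029 to 0.026), KEAP1 (-0.059 to 0.033) and AIFM2 (-0.017 to 0.084).

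Deviations from the group mean were hardly correlated between same-numbered libraries of different groups (mean r 0.0162 over 9 pairs, -0.0461 to 0.0546). For differently numbered libraries the mean r was -0.00808 over 18 pairs. Such correlations cannot show whether same-numbered libraries shared a culture or batch, and the reported fit did not pair them. With the replicate block, GCLC with Si-KDM4C#1 missed the threshold (adjusted p = 0.069) and so did AKR1C2, FTH1 and ME1 between the siRNAs (0.061, 0.0606 and 0.0656). Thus 18 members rose with Si-KDM4C#1 and 9 were higher between the siRNAs, and passing the test changed for no other member. Low genes limit precision most: OSGIN1, AKR1C2 and SRXN1 rest on 15 to 191 fragments per library.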
